A study of Mus musculus with 40 samples.

Results

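The endoplasmic reticulum (ER) translocation and N-glycosylation machinery was followed here as 34 genes, named by symbol in 6 groups by role and not by any measured value. All 34 were found among the 21958 genes of the deposited count table, and all 34 passed the filter on low counts in every comparison. RNA came from sorted bone marrow B-lineage cells of 10 chimeric mice, in 40 libraries of 100 cells each. In 5 mice, lethally irradiated CD45.1 hosts carried marrow homozygous for P198A, a proline to alanine change at residue 198 of the zinc transporter ZIP7 made with CRISPR/Cas9. In the other 5 the hosts carried wild-type (WT) marrow. All mice were sampled after 8 weeks of reconstitution, and host cells were gated out by CD45.1 and CD45.2. Each mouse gave 1 library of each of 4 stages of the Hardy scheme. FrB are pro-B cells (B220+ CD43+ CD24+ BP1-), FrD late pre-B cells (B220+ CD43- IgM- IgD-) and FrE immature B cells (B220+ CD43- IgM+ IgD-). For FrC the labels name no gate. Ages of the mice and the host's genotype outside CD45.1 are not given either. The titles call the mutant KO, but the allele changes 1 residue, so the level of Slc39a7, the gene of ZIP7, does not check the genotype.

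Secreted and membrane proteins enter the ER as they are made. The signal recognition particle (SRP) binds a signal sequence as it leaves the ribosome and docks at the SRP receptor, and the chain is passed to the Sec61 channel. The translocon-associated protein (TRAP) complex and the TRAM proteins help the channel with some substrates, Sec62 and Sec63 serve chains that enter late or need BiP, the signal peptidase removes the signal sequence, and the oligosaccharyltransferase moves a preassembled glycan onto asparagine. B-lineage cells need this route for the immunoglobulin chains and their surrogate light chains, and plasma cells expand it for antibody secretion.

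Libraries differed in quality before any result. Totals over genes ran from 42111 counts (FrE of mutant mouse 9) to 43372070, with a median of 16474388, and the 34 genes together had 399 to 403943 counts in a library (median 163942). In 10 libraries genes with 1 to 9 counts made up over 15% of those detected, a sign of low complexity. Among mutants, mice 4, 8, 9 and 10 each had one in FrB, mice 5, 9 and 10 in FrC and mouse 9 in FrE. The WT ones were FrD from mouse 3 and FrE from mouse 7. Genotype comparisons in FrB therefore keep 1 mutant mouse of 5 without them, so results are given with and without these 10. The cut falls between close values: FrE of WT mouse 1 (14.7%) was kept and FrB of mutant mouse 10 (16.4%) was not. No other cut was tried. FrC of mutant mouse 9 stood furthest apart: erythroid markers made up 8.07% of its counts, its TMM factor was 0.139, and its scaled levels are raised accordingly. RNA of marker genes of several cell types also differed between groups, and those values are given beside the results. Each is a sum over a list of genes, and does not show which gene moved or which cells held the RNA. The plasmacytoid dendritic cell list was Siglech, Ccr9, Bst2, Tcf4, Klk1, Cox6a2, Ly6d, Cd209d, Tlr7 and Irf8. Its sum is not read here as a number of such cells. In pooled cells, fewer cells of a type and less RNA per cell cannot be told apart.

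Levels are CPM, counts scaled to the TMM-adjusted library size, given as the value in each library or as mean ± SD. The 34 genes made up 0.720% ± 0.158, 0.757% ± 0.0922, 1.003% ± 0.115 and 1.14% ± 0.146 of gene counts in mutant FrB, FrC, FrD and FrE (SD, n = 5 each). In WT the shares were 1.14% ± 0.156, 0.830% ± 0.0424, 0.891% ± 0.170 and 0.897% ± 0.181 (SD, n = 5 each). Groups of the 2 genotypes did not overlap in FrB, where mutant libraries held 0.509% to 0.880% and WT libraries 0.949% to 1.35%. The genotypes overlapped in the other 3 fractions. In mutant FrB 4 of 5 libraries were of low complexity, and no WT FrB library was. The other mutant FrB library held the 0.880%. In WT FrD the low-complexity library held 0.600%, and the others 0.9095% to 1.04%. In WT FrE these were 0.623%, and 0.863% to 1.10%. The part of library complexity in these shares was not tested. WT FrB, which had the highest share of the WT fractions, also had the most RNA of Jchain, the joining chain of secreted IgM and IgA and a plasma cell marker.

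**Figure D1:**
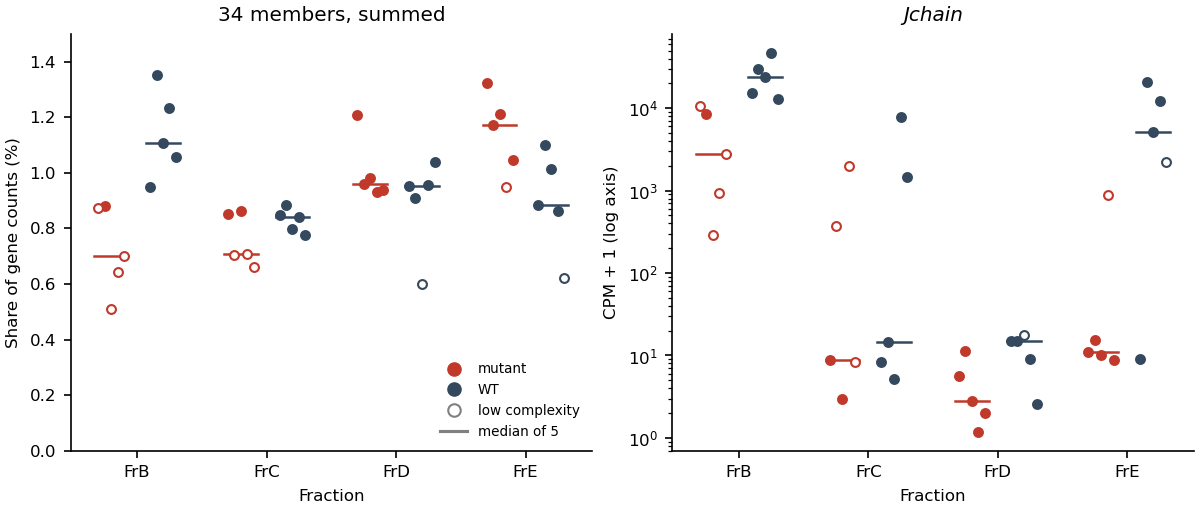
Left, share of gene counts (%) held by the 34 genes together in each library; right, Jchain in CPM + 1 on a log axis. Each point is a library, mutant in red and WT in dark blue, open where of low complexity, and lines are medians of 5. Mutant FrB lies wholly below WT FrB in the left panel, with 4 of the 5 mutant points of low complexity. Jchain is at 12886 CPM or more in every WT FrB library.

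Per kilobase of exon, genes were compared with each other in WT. Bcap31, which encodes an ER membrane protein that escorts newly made membrane proteins, had the highest median in FrB, FrC and FrE, at 439, 366 and 434 CPM per kb, and was the second in FrD at 390. Srp14, an SRP subunit that binds the Alu domain of the particle's RNA, stood at 268, 245, 583 and 367 CPM per kb from FrB to FrE. Sec61b, the beta subunit of the channel, stood at 279, 184, 215 and 246. Sec61g, the gamma subunit, was the lowest in FrB, FrC and FrE and the second lowest in FrD, at 4.37 to 7.45 CPM per kb. Tusc3, a thioredoxin-like oligosaccharyltransferase subunit, was the lowest in FrD and stood at 5.78 to 10.3 over the stages, while Srprb (5.86) and Sec63 (6.33) lay below it in FrE. Sec61b and Sec61g have near-identical copies elsewhere (for example Gm10320, 98.3% identical to Sec61b over 474 bases), as do Spcs2, Srp9 and Srpr. Counts of these genes are uncertain. Opposite-strand exons of other genes overlap Spcs1, Spcs3, Sec11a, Rpn2, Krtcap2, Srpr, Sec61a1, Sec62, Sec63, Ssr2, Rpn1 and Srp9. On the same strand, Nmb shares exon bases with Sec11a, and Gm20425 shares 888 of them with Srprb. The counting's strand setting is not stated in the labels or processing notes, so reads of the opposite-strand pairs cannot be told apart here. For the pairs on the same strand, no strand setting would separate reads of the shared bases.

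Some complexes come in versions that differ by 1 subunit, and the balance of these partners was compared per length within each library. Stt3a, the catalytic subunit of the complex that acts with the channel, and Stt3b, that of the complex that acts afterwards, were close to equal in most groups. Their log2 ratio (Stt3a over Stt3b) averaged -0.96 ± 1.66, -0.87 ± 1.47, -0.22 ± 0.21 and -0.20 ± 0.78 in mutant FrB, FrC, FrD and FrE, against 0.19 ± 0.49, -0.16 ± 0.33, 0.94 ± 0.76 and 0.36 ± 0.53 in WT (SD, n = 5 each). The genotypes did not overlap in FrD, where mutant libraries ran from -0.49 to -0.00 and WT libraries from 0.40 to 2.26, or 0.40 to 0.90 without WT mouse 3. Tram2, a TRAM paralogue, was far below Tram1 in every group. The log2 ratio Tram2 over Tram1 averaged -6.02, -6.57, -3.63 and -3.60 in mutant FrB to FrE and -2.63, -4.80, -2.95 and -3.90 in WT. Sec11c stood above Sec11a, the other catalytic subunit of the signal peptidase. Mean log2 ratios were 1.21, 0.90, 1.05 and 0.75 in mutant and 1.33, 0.24, 1.46 and 0.81 in WT. Without low-complexity libraries this ratio was 0.41 in mutant FrB (1 library) and 0.45 in mutant FrC (2 libraries). Tusc3 was listed at 0 in 3 low-complexity libraries (mutant FrB mouse 10, mutant FrC mouse 9 and WT FrE mouse 7), while its partner Magt1, which also transports magnesium, averaged 70.6 to 190 CPM over the 8 groups.

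**Figure D2:**
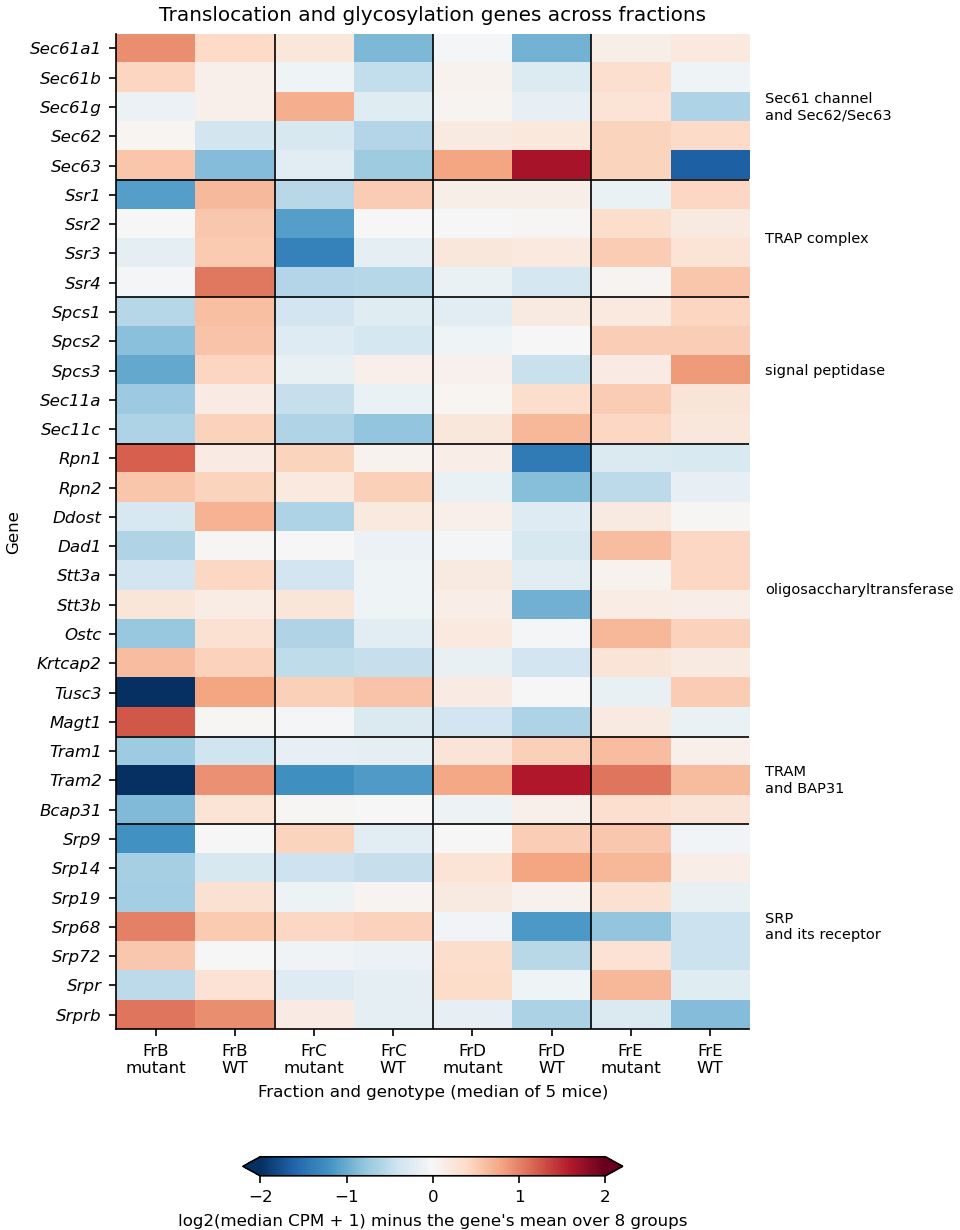
Each row is a gene, grouped by complex, and each column a fraction and genotype, with mutant left of WT. Colour gives log2(median CPM + 1) of 5 mice minus the gene's mean over the 8 groups. Sec63 and Tram2 are the highest rows in WT FrD and Sec63 the lowest in WT FrE, while Tusc3 and Tram2 are the lowest in mutant FrB.

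Sec63 encodes the J-domain membrane protein that recruits BiP to the Sec61 channel. In FrB it had 256, 62.2, 92.0, 320 and 353 CPM in mutant mice 4, 5, 8, 9 and 10, against 95.3, 93.2, 103, 86.8 and 101 CPM in WT mice 1, 2, 3, 6 and 7. In FrC it had 83.0, 171, 149, 14684 and 104 CPM in mutant mice, against 85.2, 131, 98.3, 106 and 146 CPM in WT mice. The value of 14684 comes from 3524 counts in the library of mouse 9 described above, and the other 4 mutant values overlap the WT range. In FrD it had 372, 444, 301, 242 and 295 CPM in mutant mice, against 514, 626, 358, 549 and 761 CPM in WT mice. All but 2 mutant values lie below all WT values there. In FrE it had 264, 239, 197, 143 and 269 CPM in mutant mice, against 72.6, 55.6, 114, 40.3 and 4.80 CPM in WT mice. Every mutant library was above every WT library, although the lowest of each group rested on a low-complexity library, with 8 counts in mutant mouse 9 and 23 in WT mouse 7.

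Across WT stages, Sec63 rose from FrC to FrD by 2.32 ± 0.46 on the log2 scale (SE, adjusted p = 0.00374) and fell by 3.33 ± 0.48 from FrD to FrE (adjusted p = 0.000181). Both calls held with the mouse as a block (2.33, adjusted p = 0.0120, and -3.41, adjusted p = 0.00126) and without the low-complexity libraries (2.41 and -3.14). Scaled to spike-in totals, the FrD over FrC value was negative and not a rise. The median of all genes moved by -2.39 on that scale. In mutants the FrD over FrC value was -3.34 ± 1.12 with all libraries, which rests on mouse 9, and 1.53 ± 0.34 without low-complexity libraries (adjusted p = 0.0400, against 0.658% of all genes called higher). With the mouse as a block in those libraries it stood at 1.55 ± 0.35 and was not called (adjusted p = 0.0972). The mutant FrE over FrD value was -0.57 ± 1.03 with all libraries and -0.47 ± 0.25 without them (adjusted p = 1 and 0.411). The difference between the genotypes in this last step (mutant minus WT) was 2.75 with all libraries and was not called. Without the low-complexity libraries it was 2.69 ± 0.36 (adjusted p = 3.59e-05), and 2.63 ± 0.36 with the mouse as a block as well (adjusted p = 0.000576, against 0.29% of all genes called higher). FrE on its own gave 1.97 ± 0.58 (mutant over WT, adjusted p = 0.514) with all 10 libraries. Without the 2 low-complexity ones it gave 1.77 ± 0.34 (adjusted p = 0.0542, against 0.162% of all genes called higher). It stood at 1.78 ± 0.27 (adjusted p = 0.000186, against 0.609%) when the 30 remaining libraries of all fractions were fitted together. That joint fit, and the block without low-complexity libraries, were added after seeing the data.

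Plasma cell markers also differed in FrE. Their summed level was 2245 to 2836 CPM in mutant FrE and 2896 to 24463 CPM in WT FrE. Jchain alone made up much of the highest sums, reaching 20649 CPM in WT FrE. Of the 12 markers Prdm1 and Cd28 were at 0 in 4 of 5 mutant FrE libraries. Their values in WT FrE are not given here, so these zeros are no comparison between genotypes. Jchain had 10.1, 14.5, 9.23, 892 and 7.80 CPM in mutant FrE mice 4, 5, 8, 9 and 10, against 8.16, 20649, 5087, 12200 and 2210 CPM in WT FrE mice 1, 2, 3, 6 and 7. The summed pro-B markers ran from 3495 to 6266 CPM in mutant FrE and from 1693 to 3502 CPM in WT FrE. Immature B markers summed to 7965 to 11532 CPM in mutant FrE and 13067 to 35249 CPM in WT FrE, with no overlap. The part of these markers in the result was not tested.

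**Figure D3:**
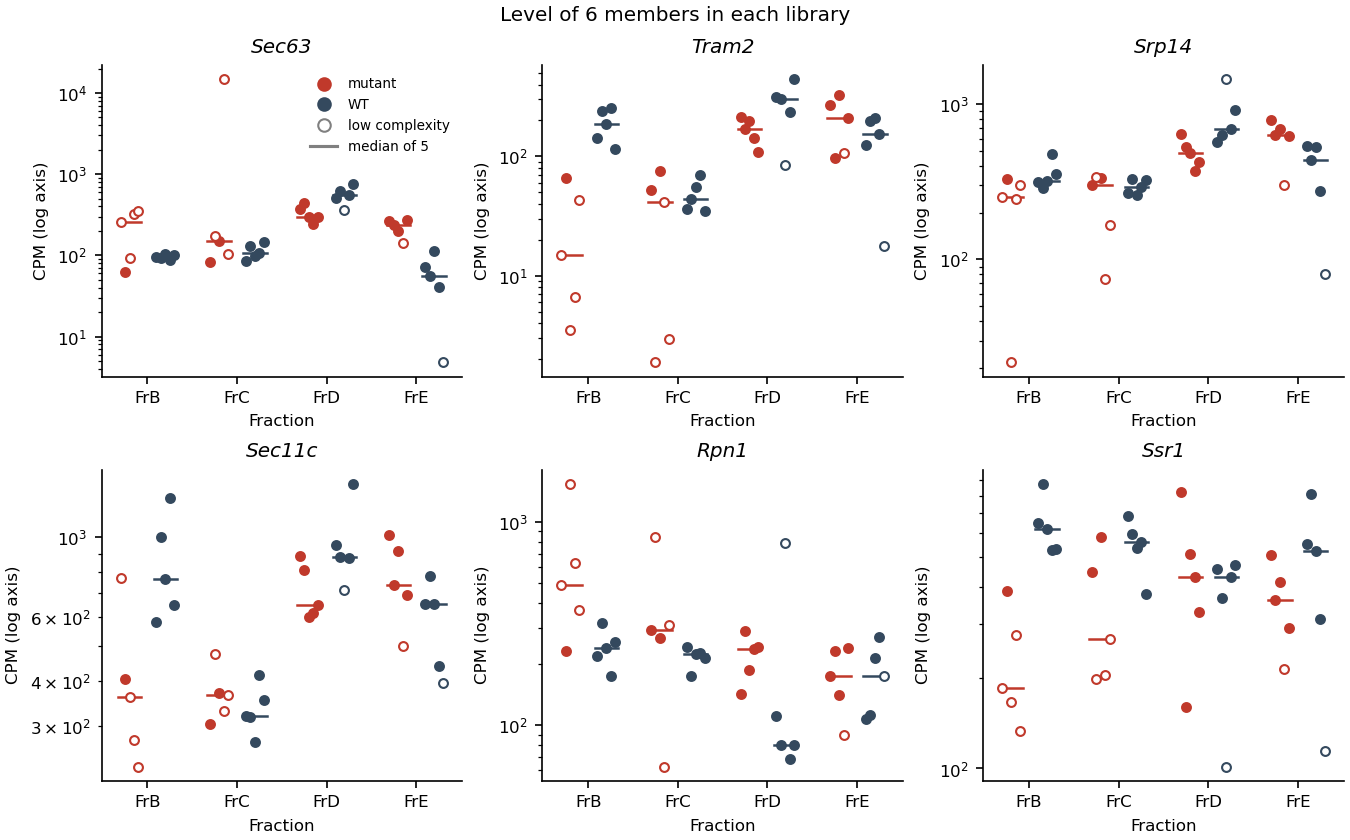
Level of Sec63, Tram2, Srp14, Sec11c, Rpn1 and Ssr1 in each library, in CPM on a log axis, by fraction, with mutant (red) left of WT (dark blue). Open points are low-complexity libraries and lines are medians of 5. In FrE all 5 Sec63 points of mutants lie above all 5 of WT, and the highest Sec63 point, at 14684 CPM, is FrC of mutant mouse 9.

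From FrB to FrC in WT, most of the machinery had lower values in FrC. Of the 34 genes 31 had a log2 change below 0, with a median of -0.34 against 0.01 over all 11439 genes tested. Only Sec11c passed the test, against 0.166% of all genes called lower. It had 319, 318, 270, 415 and 353 CPM in WT FrC mice 1, 2, 3, 6 and 7, against 581, 999, 766, 1281 and 648 CPM in WT FrB. The groups did not overlap, and Sec11c fell by 1.34 ± 0.26 on the log2 scale (SE, adjusted p = 0.0304). With the mouse as a block none was called, nor without any of WT mice 1, 2, 3 and 6, and 3 were called without WT mouse 7.

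Without the low-complexity libraries, which lie in WT FrD and FrE and enter this step only through the shared fit, 7 of 34 were called lower in FrC, against 1.38% of all genes. They were 2 of 4 TRAP subunits (Ssr3 at -0.87 and Ssr4 at -1.68), 3 of 5 signal peptidase subunits (Spcs1 at -1.10, Spcs2 at -0.96 and Sec11c at -1.33), Krtcap2, an oligosaccharyltransferase subunit, at -1.15, and Tram2 at -1.95. None of the SRP genes or the 5 genes of the Sec61 channel with Sec62 and Sec63 was among them. Ssr4, the delta subunit of TRAP, had 173, 223, 189, 243 and 199.5 CPM in WT FrC, against 347, 839.5, 566, 961 and 614 CPM in WT FrB, with no overlap. The 7 were also called with the mouse as a block in these 18 WT libraries, with adjusted p from 0.000235 to 0.0474, against 1.15% of all genes. That block fit was added after seeing the data.

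Plasma cell markers were lower in the same step, with summed levels of 1728 to 10311 CPM in WT FrC and 16510 to 52152 CPM in WT FrB. Jchain had 7.27, 13.8, 4.25, 7825 and 1470 CPM in WT FrC, against 15378, 30054, 24000, 47105 and 12886 CPM in WT FrB. In a list of 18 genes of the XBP1 and ATF6 response, which drives ER capacity, 3 were called lower in FrC and 0 higher (list median -1.35): Xbp1 itself at -2.57 ± 0.44, Creld2 at -2.03 ± 0.41 and Edem1, which feeds misfolded glycoproteins to degradation, at -2.33 ± 0.48 (SE, adjusted p = 0.00786, 0.0450 and 0.0450). Of 23 genes for assembly of the dolichol-linked glycan, 10 for glycan trimming and its lectin chaperones, and 29 tested for other translocation and insertion routes, none was called in this step. Immature B markers summed to 1915 to 3663 CPM in WT FrC and 6143 to 10763 CPM in WT FrB, and plasmacytoid dendritic cell markers to 587 to 780.4 CPM in WT FrC and 1457 to 2436 CPM in WT FrB, neither with overlap. The part of these markers in the values was not tested.

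**Figure D4:**
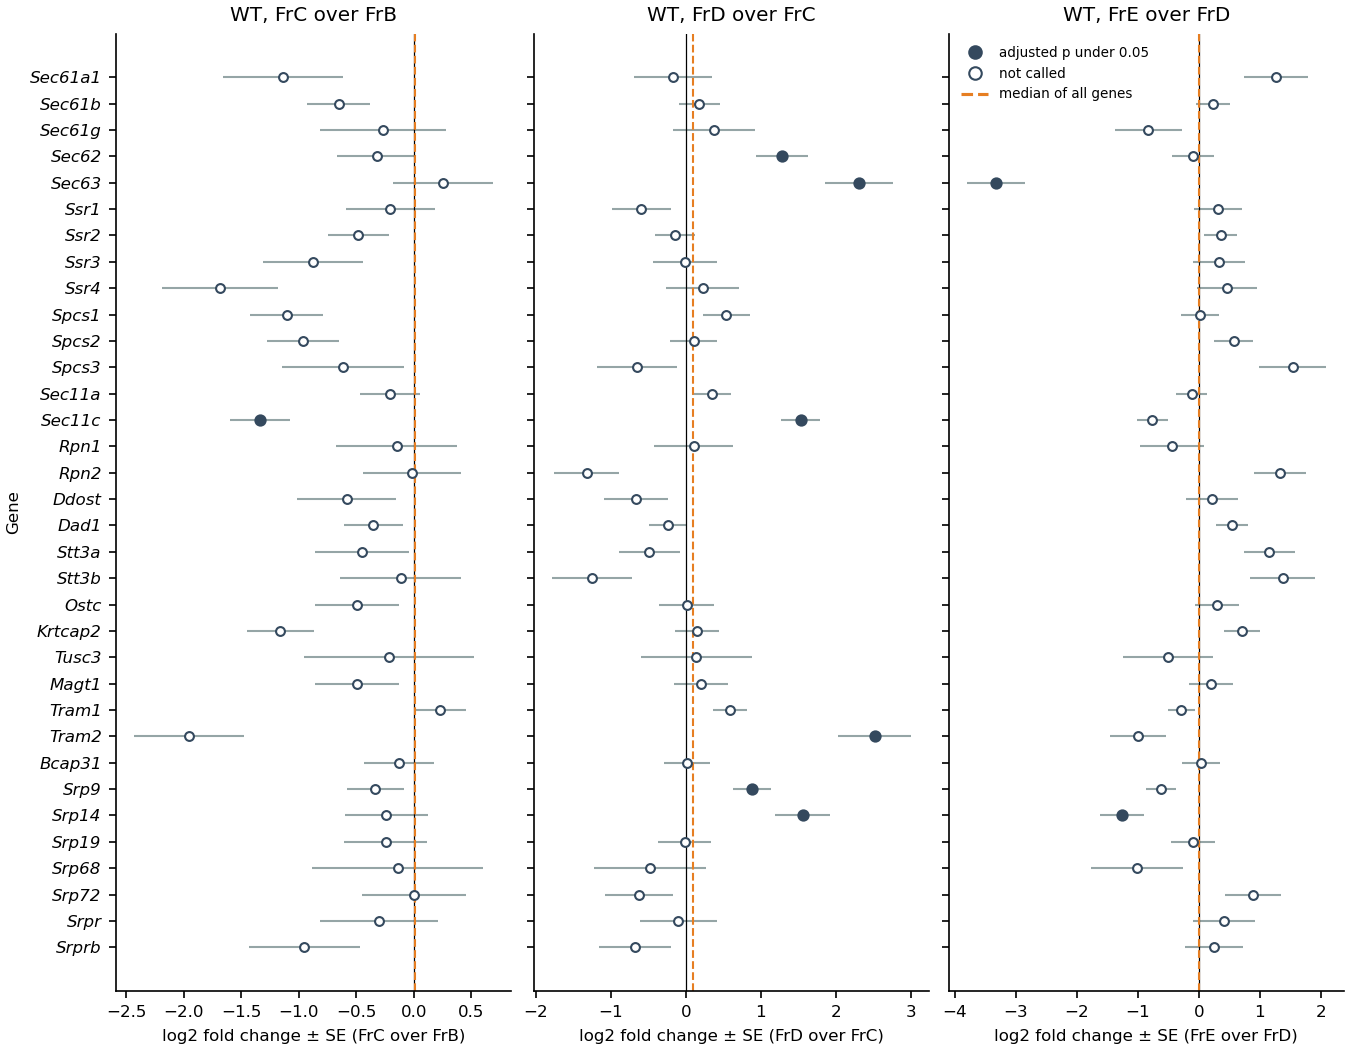
Log2 fold change ± SE of each of the 34 genes between consecutive WT fractions (later over earlier), fitted on 20 WT libraries. Filled points have an adjusted p under 0.05, and the dashed line is the median of all genes. In the left panel 31 points lie below 0; Sec63 lies furthest right but one in the middle panel and furthest left in the right panel.

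From FrC to FrD in WT, 6 of 34 genes rose, against 2.95% of all genes called higher, and none fell, against 2.28%. Besides Sec63 these were Tram2, Srp14, Sec11c, Sec62 and Srp9. Tram2 had 312, 303, 85.3, 236 and 442 CPM in WT FrD, against 36.0, 44.3, 55.8, 69.4 and 35.0 CPM in WT FrC. The groups did not overlap, and the change was 2.52 ± 0.49 (SE, adjusted p = 0.00292). Srp14 had 575, 635, 1447, 697 and 923 CPM in WT FrD, against 269, 328, 262, 292 and 324 CPM in WT FrC, again with no overlap (1.56 ± 0.37, adjusted p = 0.0133).

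Sec11c had 949, 879, 713, 875 and 1406 CPM in WT FrD, so that its level there was above every WT FrC library (1.53 ± 0.26, adjusted p = 0.00102). Sec62, which works beside Sec63, rose by 1.28 ± 0.35 and Srp9, the partner of Srp14 in the Alu domain, by 0.88 ± 0.25 (SE, adjusted p = 0.0307 and 0.0390). With the mouse as a block, Sec62 and Srp9 were no longer called, and Sec63, Tram2, Srp14 and Sec11c were, against 1.87% of all genes. Sec63, Tram2 and Sec11c were called whichever WT mouse was left out, and Srp14 was not called without WT mouse 1, 2 or 3. Within the SRP the other 3 protein subunits measured did not pass the test: Srp19 stood at -0.02, Srp68 at -0.48 and Srp72 at -0.63 on the log2 scale. Of the glycan trimming list Mlec, the ER lectin malectin, fell by 1.65 ± 0.36 in this step (adjusted p = 0.00762), and none of the dolichol list, the other routes or the XBP1 and ATF6 list was called. Plasmacytoid dendritic cell markers summed to 2594 to 5416 CPM in WT FrD and 587 to 780.4 CPM in WT FrC, with no overlap. Without WT mouse 3, B-lineage markers did not overlap either, at 16427 to 20188 CPM in WT FrD and 8277 to 9263 CPM in WT FrC. Their part in the values of this step was not tested.

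Without the low-complexity libraries the 6 calls remained and Tram1 was added at 0.71 ± 0.15, against 8.54% of all genes called higher. In the same fit 3 of 34 genes, all oligosaccharyltransferase subunits, were called lower in FrD. That share is close to the 7.53% of all genes called lower. Rpn1, the ribophorin that ties the complex to the ribosome side of the membrane, had 112, 80.1, 68.0 and 80.3 CPM in FrD of WT mice 1, 2, 6 and 7, against 242, 174, 225, 227 and 215 CPM in WT FrC (-1.37 ± 0.26, adjusted p = 0.00103). In FrD of WT mouse 3, the library left out, Rpn1 stood at 785 CPM. Rpn2 and Stt3b were lower by -1.40 ± 0.27 and -0.96 ± 0.26 (adjusted p = 0.00110 and 0.0145). Scaled to spike-in totals instead, the median of all genes moved by -2.39 in this step. All 6 genes above had values between -1.61 (Srp9) and -0.12 (Tram2) on that scale, and so stood above that median, while 28 of 34 were called lower, against 57.7% of all genes.

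The genes called higher in WT FrD were looked at for shared sequence before their starts, since they moved together at 1 step. The 120 bases before the RefSeq start (build GRCm38.p6) are shown for 5 of the 6, with each ACGT, the core of the sites that XBP1 and related factors bind, in capitals.
Sec63, chr10:42761376-42761495, plus strand: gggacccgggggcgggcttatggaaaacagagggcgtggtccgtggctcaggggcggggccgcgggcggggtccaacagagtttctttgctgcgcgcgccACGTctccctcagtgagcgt
Tram2, chr1:21079226-21079345, minus strand: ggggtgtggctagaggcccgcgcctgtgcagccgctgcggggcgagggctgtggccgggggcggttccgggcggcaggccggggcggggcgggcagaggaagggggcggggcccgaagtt
Srp14, chr2:118479697-118479816, minus strand: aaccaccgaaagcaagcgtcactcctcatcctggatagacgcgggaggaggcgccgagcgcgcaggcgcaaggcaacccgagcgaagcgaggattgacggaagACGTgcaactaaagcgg
Sec62, chr3:30792756-30792875, plus strand: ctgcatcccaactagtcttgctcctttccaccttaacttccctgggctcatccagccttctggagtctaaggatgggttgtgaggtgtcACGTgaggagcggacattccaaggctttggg
Srp9, chr1:182124617-182124736, plus strand: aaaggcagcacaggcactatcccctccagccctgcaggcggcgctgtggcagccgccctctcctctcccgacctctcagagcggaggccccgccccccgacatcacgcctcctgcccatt
ACGT is present once in Sec63, Srp14 and Sec62 and is absent from these stretches of Tram2 and Srp9. In the 250 bases before the start, on both strands, ACGT was found in 11 of the 25 members that have a RefSeq window and in 29.6% of all 27025 genes with one. CCAAT, the box bound by NF-Y, was found in 12 of 25 and in 37.5% of all genes. The longer motifs ERSE (bound by ATF6 with NF-Y), ERSE-II, the UPRE core TGACGTGG, the cyclic AMP element TGACGTCA and the EBF1 motif were found in 0 of 25, and in 0.13%, 0.037%, 0.603%, 1.77% and 0.914% of all genes. These matches describe letters in a window and are no evidence of binding or of its absence.

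From FrD to FrE in WT, Sec63 and Srp14 fell, 2 of 34 against 2.43% of all genes called lower, and none rose, against 2.88%. Srp14 had 538, 438, 529, 274 and 80.8 CPM in WT FrE mice 1, 2, 3, 6 and 7, against 575 to 1447 CPM in WT FrD. The groups did not overlap, and Srp14 fell by 1.25 ± 0.36 (SE, adjusted p = 0.0469). With the mouse as a block it stood at -1.27 and was not called (adjusted p = 0.0967, with 1.41% of all genes called lower), and it was not called when any 1 WT mouse was left out. Without the low-complexity libraries 5 genes were called higher in FrE, against 4.31% of all genes, and 3 lower, against 4.60%. The higher ones were Ssr4 (0.84), Spcs3, a non-catalytic signal peptidase subunit (0.99), Rpn1 (1.03), Stt3a (0.69) and Stt3b (0.93), and the lower ones Sec63, Tram2 (-0.93) and Srp14 (-0.69). With the mouse as a block in the same libraries Rpn1 (0.96), Stt3a (0.69) and Srp14 (-0.61) were not called (adjusted p = 0.0775, 0.0758 and 0.182).

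In the XBP1 and ATF6 list 6 of 18 were called higher in WT FrE than in WT FrD (median 1.25), among them Creld2 at 1.97 ± 0.41, the BiP gene Hspa5 at 1.21 ± 0.30, Pdia6 at 0.98 ± 0.25 and Sel1l at 1.72 ± 0.45 (SE, adjusted p = 0.00626, 0.0197, 0.0229 and 0.0256). Of the trimming list, Calr, the soluble lectin chaperone calreticulin, rose by 1.31 ± 0.25 and Man1b1, a mannosidase, by 2.54 ± 0.72 (adjusted p = 0.00298 and 0.0415). Plasma cell markers had summed levels of 2896 to 24463 CPM in WT FrE and 1760 to 2636 CPM in WT FrD, with Jchain at 2210 CPM or more in 4 of 5 WT FrE libraries and at most 16.5 CPM in WT FrD. Immature B markers summed to 13067 to 35249 CPM in WT FrE and 2128 to 11110.0 CPM in WT FrD, plasmacytoid dendritic cell markers to 5469 to 11356 CPM in WT FrE and 2594 to 5416 CPM in WT FrD, and pro-B markers to 1693 to 3502 CPM in WT FrE and 5386 to 7819 CPM in WT FrD, none with overlap. Their part in the values of this step was not tested.

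In mutants, the same steps gave few calls. From FrB to FrC and from FrD to FrE no gene of 11197 was called in either direction by edgeR, and 6 and 0 of the 34 had an unadjusted p under 0.05. From FrC to FrD Krtcap2 was called lower (-4.16 ± 1.10, adjusted p = 0.0412, against 2.56% of all genes, with 0.402% called higher), which rests on mouse 9: its FrC library held 16350 CPM, from 3924 counts, and the other 4 mutant FrC libraries 139 to 437 CPM. Without that mouse the value was 0.01.

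Between genotypes, FrB was the fraction with calls. In mutant FrB 3 genes were lower, against 1.72% of all 10562 genes tested, and 1 was higher, against 5.64%. The members' median log2 change was -0.56 against 0.11 over all genes. Of the 34 genes 21 were below 0, while 53.2% of all genes were above 0. All 4 TRAP subunits and all 5 signal peptidase subunits were below 0 (medians -0.96 and -1.29), while 4 of the 5 genes of the Sec61 channel with Sec62 and Sec63 were above it. These signs include the 4 low-complexity mutant libraries. In mutant mouse 5, the other one, Sec61a1 (62.0 CPM) and Sec63 (62.2 CPM) lay below every WT library, the lowest of which held 107 and 86.8 CPM. Sec61b and Sec61g lay within the WT range there, and Sec62 above it.

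Ssr1, the alpha subunit of TRAP, had 185, 387, 166, 277 and 133 CPM in FrB of mutant mice 4, 5, 8, 9 and 10, against 649, 876, 619, 529 and 531 CPM in WT FrB. No mutant library reached the lowest WT library, and Ssr1 was lower by -1.39 ± 0.32 (SE, adjusted p = 0.0190). Tram2 had 14.998, 66.1, 3.52, 6.61 and 43.0 CPM in mutant FrB, against 143, 240, 187, 254 and 115 CPM in WT FrB, again without overlap (-2.74 ± 0.70, adjusted p = 0.0289). Spcs2, a signal peptidase subunit, had 295, 451, 114, 245 and 521 CPM in mutant FrB and 627, 1117, 783, 1009 and 639 CPM in WT FrB, without overlap (-1.29 ± 0.36, adjusted p = 0.0409).

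Rpn1 was higher in mutant FrB. It had 492, 231, 1545, 631 and 369 CPM in mutant mice, against 219, 319, 240, 174 and 257 CPM in WT mice, and the groups overlapped through mutant mouse 5 (1.58 ± 0.46, adjusted p = 0.0477). Mutant mouse 5 is the only mutant FrB library that is not of low complexity. With that mouse alone against the 5 WT mice, assuming that it varies as the WT libraries do, Rpn1 stood at -0.02, Ssr1 at -0.68, Tram2 at -1.46 and Spcs2 at -0.84, and none of the 34 genes was called, against 0.126% of all genes called higher and 1.07% lower. The members' median was then -0.29 against -0.16 over all genes. With single mice left out, the number of members called in FrB was 0 without WT mouse 1, 2 or 3, 1 without WT mouse 6 or 7, 2 without mutant mouse 4 or 9, 5 without mutant mouse 8 and 9 without mutant mouse 5.

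**Figure D5:**
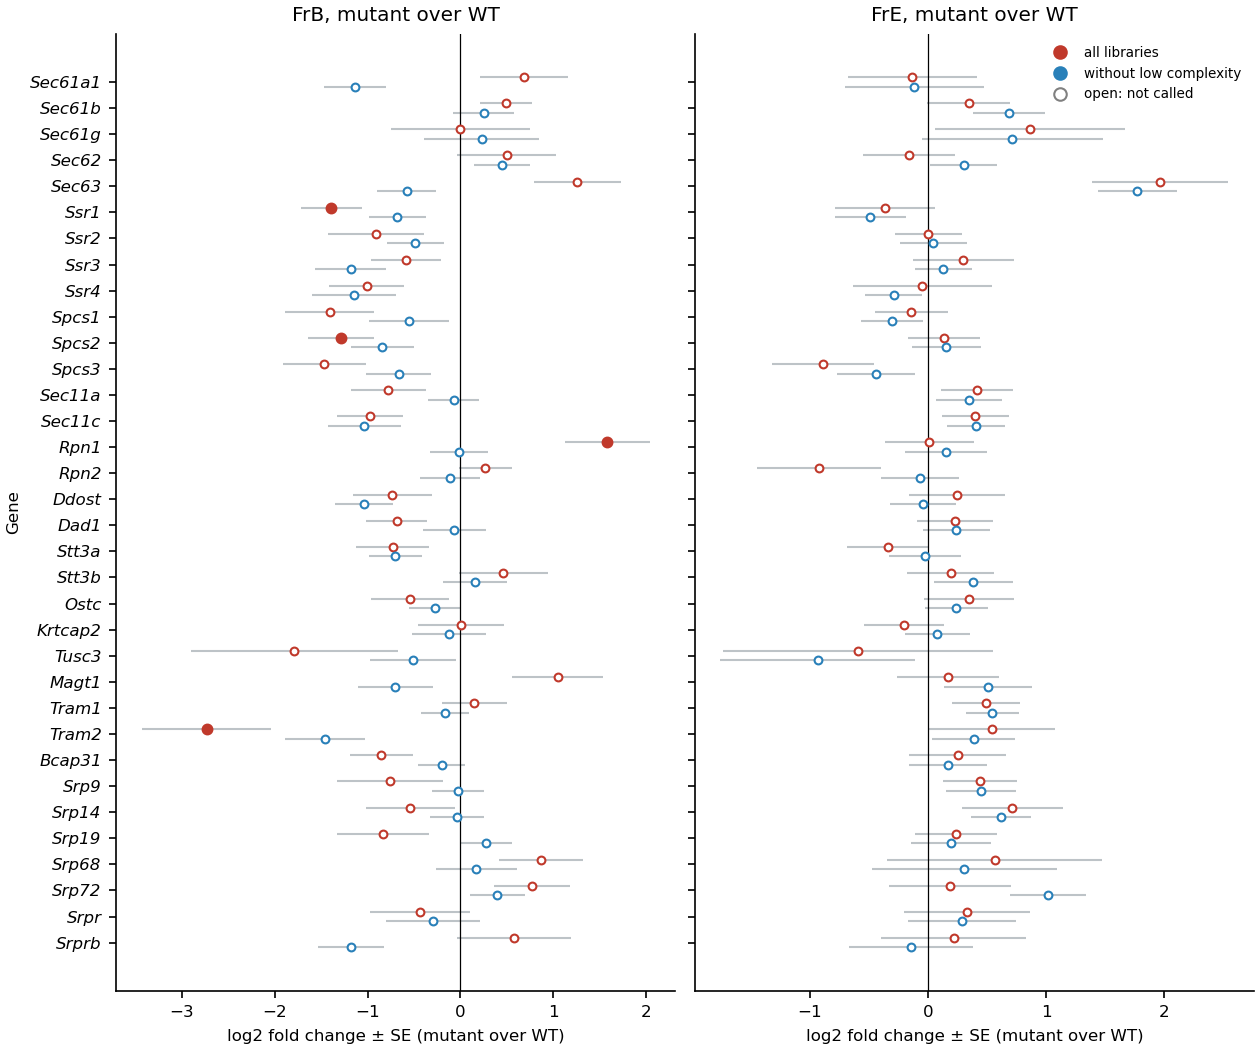
Log2 fold change ± SE (mutant over WT) of each gene in FrB, left, and FrE, right. Red points use all libraries and blue points leave out those of low complexity, and filled points have an adjusted p under 0.05. In FrB the 4 filled points are Ssr1, Spcs2, Rpn1 and Tram2, all with all libraries; in FrE Sec63 is furthest right in both fits and open in both.

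Markers of several cell types differed in the FrB comparison. Plasma cell markers summed to 1362 to 13229 CPM in mutant FrB and 16510 to 52152 CPM in WT FrB, granulocyte and monocyte markers to 2320 to 88408 CPM in mutant FrB and 118 to 11825 CPM in WT FrB, and immature B markers to 676 to 3516 CPM in mutant FrB and 6143 to 10763 CPM in WT FrB. B-lineage markers summed to 4291 to 5926 CPM in mutant FrB and 8523 to 9554 CPM in WT FrB, with no overlap. In mutant mouse 5, the only mutant FrB library not of low complexity, granulocyte and monocyte markers (2320 CPM) lay within the WT range. Its plasma cell (10383 CPM), immature B (873 CPM) and B-lineage markers (5926 CPM) lay below every WT library. The list calls that follow used all libraries, and 4 of the 5 mutant ones were of low complexity. Over all genes 1.72% were called lower and 5.64% higher. Of the lists 1 of 12 plasma cell markers and 5 of 9 tested immature B markers were called lower and 3 of 16 granulocyte and monocyte markers higher. Of the XBP1 and ATF6 list 5 of 18 were lower and 0 higher in mutant FrB, led by Dnajb9 at -3.30 ± 0.67, Xbp1 at -2.61 ± 0.54, Creld2 at -1.70 ± 0.38 and Derl3, which is also a plasma cell marker, at -2.64 ± 0.71 (SE, adjusted p from 0.0108 to 0.0346). In the trimming list the glucosidase genes Mogs and Prkcsh were higher (3.64 and 2.34) and Pdia3 lower (-1.71). Of 23 dolichol pathway genes Alg11 was lower (-4.23), and of 29 tested genes of other routes Bag6, Ncln and Sgta were higher (2.27, 3.36 and 1.88). The part of library complexity and of the cell type markers in these values was not tested.

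In FrC no gene of 10299 was called between genotypes by edgeR in either direction (0% of all genes), with 1168 genes and 5 of the 34 at an unadjusted p under 0.05. The lowest p among the 34 belonged to Sec61g (3.11), Sec63 (4.62) and Krtcap2 (4.34), each with an adjusted p of 0.271 and each highest in mouse 9. Without that mouse they stood at 0.79, 0.24 and 0.59, and without all 3 low-complexity libraries at -0.10, 0.02 and -0.05.

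In FrD 1 gene of 10043, outside the 34, was called between genotypes by edgeR (0.00996% of all genes, lower), with 3 of the 34 at an unadjusted p under 0.05. Rpn2, the second ribophorin, had 210, 218, 170, 369 and 211 CPM in FrD of mutant mice, against 133, 130, 127, 82.2 and 96.2 CPM in WT mice. Every mutant library was above every WT library, with a log2 change of 1.02 ± 0.30 (SE, adjusted p = 0.630). Sec63 and Srp14 followed at -0.79 ± 0.26 and -0.84 ± 0.30 (adjusted p = 0.788 and 0.840), and Srp14 stood at -0.53 without WT mouse 3.

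Without FrD of WT mouse 3, Rpn1 was called higher in mutant FrD, against 0.106% of all genes. It had 143, 290, 187, 237 and 244 CPM in mutant mice and 112, 80.1, 68.0 and 80.3 CPM in WT mice 1, 2, 6 and 7 (1.37 ± 0.27, adjusted p = 0.0444). In the fit of all 30 libraries that are not of low complexity, Rpn1 (1.35 ± 0.26, adjusted p = 0.00493) and Rpn2 (1.07 ± 0.26, adjusted p = 0.0325) were called higher in mutant FrD, against 0.552% of all genes. That fit was added after seeing the data. Granulocyte and monocyte markers summed to 10744 to 20379 CPM in mutant FrD and 47.3 to 101227 CPM in WT FrD, where the highest value is that of mouse 3. Without that mouse WT FrD held 47.3 to 7896 CPM, below every mutant library. Plasmacytoid dendritic cell markers summed to 586 to 2220.1 CPM in mutant FrD and 2594 to 5416 CPM in WT FrD, with no overlap. B-lineage markers summed to 8770.5 to 13516 CPM in mutant FrD and, without mouse 3, to 16427 to 20188 CPM in WT FrD. The part of these markers in the result was not tested.

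In FrE no gene of 9662 was called between genotypes by edgeR (0% in either direction), with 512 genes and 1 of the 34, Sec63, at an unadjusted p under 0.05. After Sec63 the lowest p belonged to Spcs3 at -0.88 ± 0.43 and Rpn2 at -0.92 ± 0.53 (adjusted p = 0.946 and 0.998). Rpn2 had 820 CPM in WT mouse 7, against 96.5 to 230.0 in the other 4 WT mice and 115 to 185 CPM in mutant FrE, and its log2 change was -0.04 without WT mouse 7. Spcs3 stood at -0.59 without WT mouse 7 and at -0.44 without both low-complexity libraries. With the 4 libraries of a mouse summed, none of the 34 was called over the fractions, against 0.291% of all genes called higher and 0.341% lower; Sec61b at 0.43 ± 0.13, Spcs1 at -0.43 ± 0.14 and Rpn1 at 0.50 ± 0.17 had the lowest p (adjusted p = 0.142, 0.155 and 0.165).

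Steps were also compared between genotypes in 1 fit of all 40 libraries (mutant minus WT). For FrB to FrC, Spcs1 (5.58 ± 1.23, adjusted p = 0.0395) and Krtcap2 (4.59 ± 1.11, adjusted p = 0.0419) were called higher, against 0.524% of all genes. For FrC to FrD, Sec63 (-5.71), Spcs1 (-4.55), Krtcap2 (-4.38) and Sec61g (-3.47) were called lower, against 2.71%, with 0.274% of all genes called higher. All 6 values rest on FrC of mutant mouse 9, and without that mouse they were 0.60, 0.70, -0.89, 0.38, -0.18 and -0.77 in the order given. The calls were also lost without WT mouse 1, 2, 3 or 6. Without low-complexity libraries, or with the mouse as a block, none of the 34 was called in either of these steps. For FrD to FrE none was called with all libraries, against 0.0565% of all genes called higher and 0.0968% lower, and without the low-complexity libraries Srp14 (1.17 ± 0.30, adjusted p = 0.0408) was called higher beside Sec63, against 0.651% of all genes. Srp14 had 792, 635, 688, 303 and 623 CPM in mutant FrE, against 538, 438, 529, 274 and 80.8 CPM in WT FrE, and was not called with the mouse as a block.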

How the data were processed

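Counts per gene were deposited by the authors as 1 table of 40 libraries, made per the labels' protocols from 100 sorted cells each by Smart-seq2 with ERCC spike-ins. Per the submitters' processing notes, HISAT2 2.1.0, featureCounts 1.4.6 of Subread and DESeq2 were used with build mm10; annotation and strand setting are not stated there. All 40 columns matched a label by title. Of 22050 rows, 92 are ERCC spike-ins and were kept out of library sizes and tests, and 2904 of the 21958 genes had no count.

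The counts were tested with edgeR 4.0.16 (R 4.3.3; TMM scaling, filterByExpr at min.count 10 and min.total.count 15, robust quasi-likelihood F-test), with Benjamini-Hochberg adjustment over all genes tested and calls at an adjusted p under 0.05. Genotypes were compared within each fraction and over counts summed per mouse, consecutive fractions within each genotype, and step differences in 1 fit of 40 libraries. Each mouse gave all 4 fractions, so fractions are paired by the animal; deviations of the same mouse correlated at -0.284 to 0.232 over 30 pairs of libraries. Members named with a test are those called and, between genotypes, the 3 of lowest p; other genes are those called in a list, at most 4 per list and comparison. Alternatives were RLE and spike-in scaling, no filter, DESeq2 1.42.0, each mouse left out, low-complexity libraries left out, a joint fit, the second index as covariate and the mouse as a block; 2 of them, the block and the joint fit without low-complexity libraries, were added after seeing the data. Copies were sought with blastn 2.17.0 (at least 95% identity over 150 bases) and gene models taken from GENCODE. RefSeq promoter windows were found for 25 of 34 members. The test script was tested on simulated data. Members and lists were chosen with earlier results of these data known.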

Additional observations from a re-analysis of the deposited data

Results flagged for a closer look

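The 12 genes examined were the members called in any comparison with all libraries, so some were picked through the same extreme values. Of their 96 groups of 5 libraries, 10 held a library whose gap to the nearest other passed Dixon's 95% value of 0.71. Because of how the genes were picked, this number cannot be set against a chance rate. Of the 10, 8 were low-complexity libraries. FrC of mutant mouse 9 stood apart for Krtcap2 (16350 CPM), Spcs1 (14750 CPM), Sec63 (14680 CPM) and Sec61g (591.7 CPM). FrD of WT mouse 3 stood apart for Rpn1 (784.6 CPM), Spcs2 (149 CPM) and Ssr1 (101.4 CPM), and FrB of mutant mouse 8 for Srp14 (21.68 CPM). Krtcap2 stood apart in FrE of mutant mouse 10 (158.5 CPM) and in FrB of WT mouse 6 (596.9 CPM).

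The step from FrB to FrC differed between genotypes (mutant minus WT, log2) for Spcs1 at 5.58 and Krtcap2 at 4.59. The step from FrC to FrD differed for Sec63 at -5.71, Spcs1 at -4.55, Krtcap2 at -4.38 and Sec61g at -3.47. The values of both steps rest on FrC of mutant mouse 9. None of these genes was called in either step without the low-complexity libraries. Without the low-complexity libraries the step from FrD to FrE differed for Sec63 at 2.69 and Srp14 at 1.17.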

How the results depend on the processing

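Values are numbers of the 34 genes called, unless a log2 change is named. The FrB genotype effect, with 4, gave 0 with spike-in totals, 1 with the second index, 1 in the joint fit, and 0 without low-complexity libraries in either fit, where Rpn1 stood at -0.0173 with FrB alone. The FrC effect, with 0, gave 1 with DESeq2 and 5 in the joint fit; without low-complexity libraries Krtcap2 stood at -0.0467, Sec61g at -0.0951, and in the joint fit Krtcap2 at -0.0665, Sec61g at -0.1151 and Sec63 at -0.0015. Without low-complexity libraries FrD gave 1, and in the joint fit 2, with 1 in FrE. The WT step FrB to FrC, with 1, gave 0 with spike-in totals, 4 with DESeq2 and 7 without low-complexity libraries. FrC to FrD, with 6, gave 28 with spike-in totals, where Sec11c stood at -0.97, Sec62 at -1.02, Sec63 at -0.21, Srp14 at -0.83, Srp9 at -1.61 and Tram2 at -0.12, and 10 without low-complexity libraries. FrD to FrE, with 2, gave 1 with spike-in totals, 1 without a filter, 7 with DESeq2 and 8 without low-complexity libraries. The mutant step FrC to FrD, with 1, gave 3 with RLE, 13 with spike-in totals and 0 without a filter or with DESeq2; Krtcap2 stood at 0.48 without low-complexity libraries. The step difference FrB to FrC, with 2, gave 0 with spike-in totals, without a filter and without low-complexity libraries, and 1 with DESeq2. That of FrC to FrD, with 4, gave 0, 1, 0 and 1 in the same order; without low-complexity libraries Krtcap2 stood at 0.41, Sec61g at 0.19 and Spcs1 at 0.0073. That of FrD to FrE, with 0, gave 1 with DESeq2 and 2 without low-complexity libraries. DESeq2 gave 3 over the fractions. The cause was not tested.

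With the mouse as a replicate block, WT FrB to FrC gave 0, WT FrD to FrE 1, mutant FrC to FrD 0, and the step differences FrB to FrC and FrC to FrD 0. With the replicate block and without low-complexity libraries, WT steps gave 7, 10 and 5, the mutant step FrC to FrD 0 (Krtcap2 at 0.69), and the step differences 0, 0 (Krtcap2 at 0.65, Sec61g at 0.51, Spcs1 at 0.27) and 1. With 1 mouse left out, counts ranged from 0 to 9 in FrB, 0 to 0 in FrC, 0 to 1 in FrD, 0 to 0 in FrE and over the fractions, 0 to 3, 3 to 6 and 1 to 2 in the WT steps, 0 to 0 in the mutant steps (Krtcap2 -4.56 to 0.0105 in FrC to FrD), and 0 to 3, 0 to 4 (Spcs1 -4.98 to 0.38) and 0 to 1 in the step differences. Depth limits FrE of mutant mouse 9 most, with 399 counts over the 34 genes.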
